A study of Homo sapiens with 4 samples.

Results

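The RAB GTPases are the largest branch of the RAS superfamily and mark the membranes of the secretory and endocytic routes. A RAB in its GTP-bound form sits on a membrane through prenylated cysteines near its C terminus and recruits effectors such as tethers, motors and adaptors. Exchange factors load GTP, GTPase-activating proteins end the active state, and GDI proteins return the inactive RAB to the cytosol. In carcinoma cells, RAB27A and RAB27B are known for exosome and granule release, RAB11 for the recycling of receptors and integrins, and RAB5 and RAB7 for early and late endosomes. The members were all rows of the deposited table whose symbol is RAB followed by a number and at most 1 letter from A to D. This gave 54 RAB genes among 15279 named rows, and 51 passed the filter on low counts.

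Bulk RNA-seq covered 4 libraries, 2 from MDA-MB-231 (MDA231-P, the parental line, labelled breast cancer) and 2 from MDA-MB-231Br (MDA231-BR, labelled as a brain metastasis of breast cancer). MDA-MB-231 is an established triple-negative human breast cancer line, and the name MDA-MB-231Br is generally used for a brain-seeking derivative of it. The labels give neither the way the derivative was obtained nor whether replicate libraries had cultures of their own, so p-values describe library-to-library spread alone, and this may be technical. Each line stands for 1 derivation, and bulk values cannot tell fewer expressing cells from less RNA per cell. Both lines grew in DMEM with 10% FBS and no treatment is named. Column headers give only the line, so the libraries are called A and B in column order.

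The libraries held 25835225 to 30771290 reads in named genes, and 53 of the 54 RAB genes had at least 1 read in each. RAB genes took 0.365% to 0.426% of the reads. Of the markers fixed for MDA-MB-231, 6 of 6 had reads in every library, with VIM at normalized counts of 38423 to 119550. Between the lines, log2 fold changes were 1.56 for VIM, 1.80 for MSN and -1.43 for CAV1. Of 6 genes fixed as low in this line, 5 had a row. ESR1 had 0 to 25 reads and CDH1 3 to 14, but EPCAM had 95 to 410, GATA3 234 to 353 and ERBB2 985 to 1452. The MDA231-BR libraries differed from each other. The summed normalized count of 10 interferon-stimulated genes was 77596 in MDA231-BR library B but 5908 in MDA231-BR library A, while the parental values were 7437 and 9262. Mitochondrial pseudogenes took 0.17% of the reads in MDA231-BR library B and 0.0425% to 0.0483% in the other libraries. Of markers of other cell types, 0 of 5 fibroblast, 1 of 7 leukocyte and microglia, 3 of 4 endothelial and 2 of 7 neuron and glia genes had a row. The summed endothelial markers measured 125 and 228 in MDA231-P and 717 and 821 in MDA231-BR. KDR gave 53.8 and 77.6 against 520 and 603, PECAM1 70.8 and 146 against 193 and 218, and CDH5 had 0 to 5 reads. The neuron and glia markers summed to 2343 and 2577 against 3762 and 4012. Nearly all of this was MBP (2328 and 2550 against 3751 and 3999), while SYP had 14.5 and 27.2 against 11.5 and 12.7. CSF1R, the leukocyte marker, measured 264 and 338 against 33.6 and 55.1. The part of these markers in the RAB values was not tested, nor that of the interferon genes. The fold change without each MDA231-BR library is therefore given for the genes that passed.

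Of the 51 RAB genes tested, 7 passed the test between the lines (limma-trend, adjusted p below 0.05), or 13.7%, against 14.4% of all 14424 genes. In MDA231-BR, 6 were higher (11.8%, against 8.61% of all genes) and 1 was lower (1.96%, against 5.8% of all genes). The higher genes were RAB38, RAB27B, RAB37, RAB9B, RAB11B and RAB2B, and the lower gene was RAB42. The share of RAB genes that passed was thus close to that of all genes. The median log2 fold change was 0.11 over the RAB genes and 0.01 over all genes, and the median absolute change was 0.39 against 0.47. The libraries of the lines did not overlap for 60.8% of the RAB genes, against 61.3% of all genes. MDA231-BR was above MDA231-P without overlap in 21 RAB genes (41.2%, background 31.7%) and below it in 10 (19.6%, background 29.7%).

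**Figure D1:**
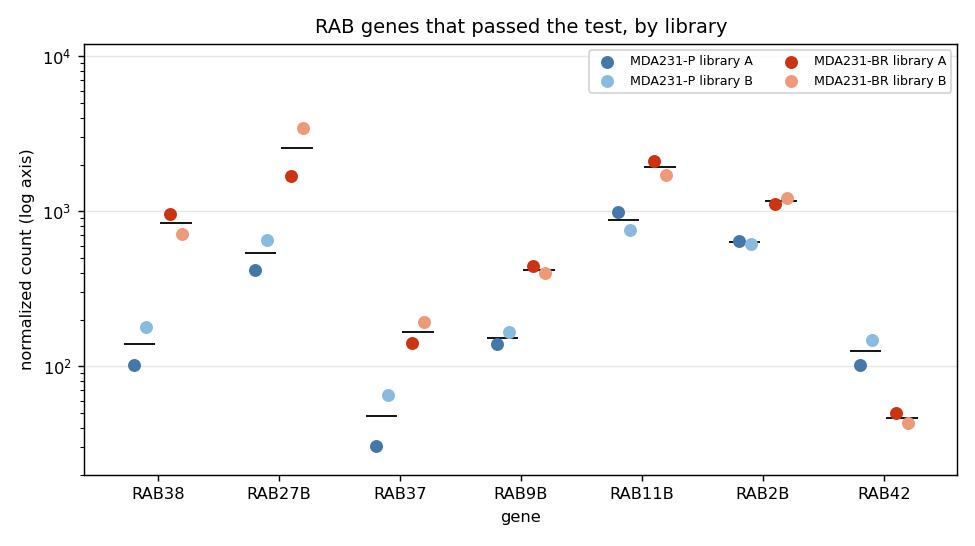
Normalized counts (log axis) of the 7 RAB genes that passed the test, with 1 point per library and a line at the mean of each line's 2 libraries. The MDA231-BR points lie above both MDA231-P points for 6 genes and below them for RAB42, and the MDA231-BR points lie far apart for RAB27B (1686 and 3438).

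Levels between genes are compared as normalized counts per kilobase of merged exon. The highest RAB genes were RAB7A, the late endosome and lysosome RAB (2436 to 3079 over the libraries), RAB10, which acts in delivery to the plasma membrane (2181 to 2674), and RAB1A, which acts between endoplasmic reticulum and Golgi (1844 to 2477). Of these 3 genes, RAB7A was the highest within each library, though barely so in parental library B (2675 against 2674 for RAB10). The order of RAB10 and RAB1A differed between libraries, with RAB1A above RAB10 only in MDA231-BR library A (2477 against 2181). None of the 7 genes that passed was among the 20 highest RAB genes of the parental line, but 2 were among the 20 highest of MDA231-BR, RAB11B at place 13 (24 in the parental line) and RAB38 at place 19 (32). In the parental line, the largest absolute log2 fold change among the 20 highest was 0.48. The 7 genes together held 3.15% and 2.87% of the summed per-kilobase level of all RAB genes in the MDA231-P libraries, and 7.34% and 8.66% in the MDA231-BR libraries. The summed level of all 54 members was 26830.0 ± 2100.0 in MDA231-P and 27490.0 ± 3760.0 in MDA231-BR (SD, n = 2 each), and the libraries of the lines overlapped. By step, the summed level was 5613 ± 367 and 5968 ± 613 for endoplasmic reticulum and Golgi, 4224 ± 342 and 4427 ± 180.0 for early endosomes, and 3543 ± 80.4 and 3801 ± 592 for recycling. It was 6574 ± 636 and 6549 ± 1880.0 for late endosomes, lysosomes and melanosomes, 4655 ± 649 and 5100.0 ± 73.9 for secretion, and 2165 ± 192 and 1597 ± 432 for the cilium and other members (MDA231-P first, SD, n = 2 each). The libraries of the lines overlapped in every step sum except that of the cilium and other members (2029 and 2300.0 against 1902 and 1292).

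The coding ends are shown because the prenylated cysteines that hold a RAB on its membrane lie there, and because they show how some members that changed differ from their closest paralogs. Each line gives the last 10 codons before the stop (30 bases, 5′ to 3′ on the coding strand) of the principal GENCODE v29 transcript, with its GRCh38 position and the cysteine codons in capitals.
RAB38 (chr11:88113991-88114020, minus strand): gttgccagcTGCtctggcTGTgccaaatcc
RAB32 (chr6:146554573-146554602, plus strand): ttgagagcagagaacaaatcccagTGTTGC
RAB9B (chrX:103825182-103825211, minus strand): agtggctccaaagcagggtcttcgTGCTGT
RAB9A (chrX:13709320-13709349, plus strand): cgaaagcccaagcctagctcatctTGCTGT
RAB11B (chr19:8403526-8403555, plus strand): cccaacaagctgcagTGCTGCcagaacctg
RAB11A (chr15:65887808-65887837, plus strand): aagccaaaggtgcagTGCTGTcagaacatc
RAB37 (chr17:74745379-74745408, plus strand): aagaagcgctccagcTGCTGCtccttcatg
RAB2B (chr14:21461199-21461228, minus strand): cgtgacatagggtccaactctggcTGCTGC
RAB42 (chr1:28594085-28594114, plus strand): aggaagcagcactcaggcccaTGCcagTGT

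RAB42 had cysteine codons at places 1 and 3 from the end, and RAB9A, RAB9B, RAB2B and RAB32 had 2 neighbouring ones at the very end. RAB11A, RAB11B and RAB37 had the pair at places 4 and 5 from the end. RAB38 had cysteine codons at places 4 and 7, unlike its paralog RAB32. The coding sequences of these pairs were 70.5% (RAB32 and RAB38), 71.6% (RAB9A and RAB9B) and 73.1% (RAB11A and RAB11B) identical over aligned bases. Their longest identical run was 17 to 20 bases. RAB6D, which the lists of traffic steps did not place, shares a run of 99 bases with RAB6A and is 96.5% identical to it, so its reads are uncertain.

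RABs of regulated and polarized secretion included 2 that rose, RAB27B and RAB37, among 10 tested, with 8 not passing (20% higher, against 8.61% of all genes). The median log2 fold change of the step was 0.42. RAB27B, which docks secretory granules and multivesicular bodies at the plasma membrane, had normalized counts of 419.8 and 656 in MDA231-P libraries A and B and 1686 and 3438 in MDA231-BR libraries A and B. Both MDA231-BR values lay above both parental values, and library B was the highest. Its log2 fold change was 2.20 ± 0.38 (SE, n = 2 each, adjusted p = 0.0086, limma-trend), with 2.71 without MDA231-BR library A and 1.68 without library B. The call ended without parental library A, where the log2 fold change was 1.875. Far fewer of all genes passed without a parental library, so a call that ends there, here or below, does not set a RAB gene apart. RAB27A, its paralog, measured 1339.5 and 1511 in MDA231-P and 2311 and 1664 in MDA231-BR. These groups did not overlap, but the gene did not pass (log2 fold change 0.46 ± 0.25 SE, adjusted p = 0.243).

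RAB37, a RAB of secretory granules, had low normalized counts of 30.7 and 65.0 in MDA231-P and 141 and 193 in MDA231-BR, from 36, 67, 147 and 182 reads. Both MDA231-BR values were the higher ones (log2 fold change 1.86 ± 0.44 SE, n = 2 each, adjusted p = 0.0291, limma-trend). The call ended without parental library A (1.33, adjusted p = 0.215) and without parental library B (2.39, adjusted p = 0.0653), while the fold change was 2.08 without MDA231-BR library A and 1.64 without library B. RAB8A, which directs post-Golgi carriers to the plasma membrane and the cilium, measured 1559 and 1122 in MDA231-P and 2105 and 2285 in MDA231-BR and did not pass (adjusted p = 0.0875). Its log2 fold change was 0.79 without MDA231-BR library A and 0.67 without library B. RAB3A, a RAB of synaptic and dense-core vesicles, had 64.0 and 66.0 in MDA231-P. It had 162 in MDA231-BR library A and 44.5 in library B, so the direction depended on the library. The log2 fold change was -0.54 without MDA231-BR library A and 1.31 without library B. RAB26 and RAB3D, of granules and synaptic vesicles, RAB13, of tight junctions, RAB10 and RAB8B had log2 fold changes from -0.33 to 0.45 and did not pass. RAB3B, with 4 to 8 reads in each library, was not tested.

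RABs of late endosomes, lysosomes and melanosomes included 2 that rose, RAB38 and RAB9B, among 8 tested, with 6 not passing (25% higher, against 8.61% of all genes) and a median log2 fold change of 0.15. RAB38, which with RAB32 delivers cargo to lysosome-related organelles such as melanosomes, had the largest change of the family. Its normalized counts were 102 and 178 in MDA231-P and 960.3 and 715 in MDA231-BR. The lowest MDA231-BR value was well above the highest parental one, and RAB38 moved from place 32 to place 19 in the per-kilobase order of RAB genes. The log2 fold change was 2.61 ± 0.34 (SE, n = 2 each, adjusted p = 0.00318, limma-trend) and RAB38 passed with each library left out (adjusted p up to 0.0297), at 2.40 without MDA231-BR library A and 2.82 without library B. RAB32 showed no such pattern, with 1447 and 2312 in MDA231-P and 2258 and 757 in MDA231-BR. Relative to the parental mean it measured 0.30 on the log2 scale in MDA231-BR library A and -1.27 in MDA231-BR library B, so the direction depended on the library. Of 7 melanocytic markers, 2 had a row (MITF and PMEL). MITF measured 819.9 and 895 in MDA231-P and 1788 and 1034 in MDA231-BR, and PMEL 22.2 to 46.6 over the libraries.

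RAB9B, like RAB9A a RAB of transport from late endosomes to the trans-Golgi network, had 139.9 and 167 in MDA231-P and 444 and 397 in MDA231-BR. The pairs were tight and far apart (log2 fold change 1.45 ± 0.28 SE, n = 2 each, adjusted p = 0.0143, limma-trend). The call ended without parental library A (adjusted p = 0.141) or parental library B (adjusted p = 0.116). Leaving out MDA231-BR library A or B gave 1.37 and 1.53. RAB9A measured 723 and 994 in MDA231-P and 1098 and 731 in MDA231-BR, with overlapping groups (log2 fold change 0.08 ± 0.29 SE, adjusted p = 0.877, limma-trend). RAB7A had a log2 fold change of -0.02 with a 95% interval from -0.55 to 0.50. RAB12, which acts in transport from recycling endosomes to lysosomes, did not pass (log2 fold change -0.48, adjusted p = 0.206, limma-trend). The fold change was -0.69 without MDA231-BR library A and -0.28 without library B.

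Among recycling RABs, RAB11B rose and 6 of 7 tested did not pass (14.3% higher, against 8.61% of all genes), with a median log2 fold change of 0.40. RAB11B had 995 and 757 in MDA231-P and 2109 and 1726 in MDA231-BR. Exons of the antisense gene RAB11B-AS1 cover 12.4% of its exon bases, so some reads may not be its own. The groups were well apart (log2 fold change 1.14 ± 0.25 SE, n = 2 each, adjusted p = 0.0234, limma-trend), although the call ended without parental library A (adjusted p = 0.0884) or parental library B (adjusted p = 0.25). It was 0.99 without MDA231-BR library A and 1.28 without library B. RAB11A, the more widely studied recycling RAB, measured 4862 and 5806.5 in MDA231-P and 5414 and 3713 in MDA231-BR, with overlap and no call (-0.25 ± 0.26 SE, adjusted p = 0.547). RAB14, which carries cargo between Golgi and endosomes, was the highest of the step per kilobase and had a log2 fold change of -0.23 (95% interval -0.73 to 0.27). RAB25, the epithelial member of the RAB11 group, had 0 reads in all 4 libraries. A count of 0 allows a level of up to 0.0975 to 0.116 CPM, depending on the library (3 reads each, counting error only). RAB4A and RAB4B, of fast recycling, and RAB35 did not pass. RAB15, a recycling RAB known from neurons, measured 0.69 and did not pass (adjusted p = 0.131, limma-trend). The fold change was 0.52 without MDA231-BR library A and 0.86 without library B. RAB17, another epithelial RAB, had 3 to 12 reads and was not tested.

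Early endosome RABs did not pass in any of 7 tested cases (0% called, against 14.4% of all genes), and none of the 9 alternatives that kept all libraries called one. Their log2 fold changes ranged from -0.41 to 0.34 with a median of -0.02. RAB5A, which drives fusion of early endosomes and was the highest by mean level of the step over both lines, measured 3955 and 4308 in MDA231-P and 5155 and 5279 in MDA231-BR. These groups did not overlap, but the difference was small (0.34 ± 0.21 SE, adjusted p = 0.31). RAB5B, RAB5C, RAB20, RAB22A and RAB31 had overlapping groups, and RAB21 did not overlap but measured only -0.15.

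RABs of endoplasmic reticulum and Golgi traffic included 1 that rose, RAB2B, and 10 of 11 that did not pass (9.09% higher, against 8.61% of all genes), with a median log2 fold change of 0.27. RAB2B, a Golgi RAB, had 645 and 619.8 in MDA231-P and 1112 and 1214 in MDA231-BR. The replicates lay close together (log2 fold change 0.88 ± 0.23 SE, n = 2 each, adjusted p = 0.0418, limma-trend). The call ended without parental library A (adjusted p = 0.214) or parental library B (adjusted p = 0.323). With MDA231-BR library A or B left out it was 0.94 and 0.81. RAB2A, its more abundant paralog, had 3908 and 4859 in MDA231-P and 3700.0 and 3149 in MDA231-BR and did not pass (-0.35 ± 0.23 SE, adjusted p = 0.331). RAB6B, a paralog of the Golgi RAB RAB6A known from neurons, had 12.8 and 16.5 in MDA231-P and 33.6 and 41.3 in MDA231-BR, from 15 to 39 reads. It did not pass (log2 fold change 1.30 ± 0.47 SE, adjusted p = 0.101, limma-trend), with 1.45 without MDA231-BR library A and 1.16 without library B. RAB36, a Golgi-associated RAB, had 114 and 76.6 in MDA231-P and 18.2 and 51.9 in MDA231-BR and did not pass (-1.57 ± 0.54 SE, adjusted p = 0.0884). Its log2 fold change was -0.84 without MDA231-BR library A and -2.30 without library B. RAB30, a Golgi RAB, measured 0.65 and did not pass (adjusted p = 0.12, limma-trend). The fold change was 0.47 without MDA231-BR library A and 0.835 without library B. RAB1A, the highest of the step, had a log2 fold change of 0.27 (95% interval -0.23 to 0.76).

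The remaining group joined RABs of the cilium with less studied members. RAB42, a little-studied RAB, fell and 6 of 7 did not pass (14.3% lower, against 5.8% of all genes). It went from 102 and 148 in MDA231-P to 49.9 and 43.4 in MDA231-BR. Both MDA231-BR values were below both parental values (log2 fold change -1.38 ± 0.37 SE, n = 2 each, adjusted p = 0.0442, limma-trend). The call ended without parental library A (adjusted p = 0.174), without parental library B (adjusted p = 0.464) and with no filter on low values (adjusted p = 0.0552), and the fold change was -1.48 without MDA231-BR library A and -1.28 without library B. RAB23, RAB28 and RAB34, which are tied to cilia, had log2 fold changes of -0.69, -0.45 and -0.44 and did not pass. Without MDA231-BR library A the values were -0.841, -0.755 and -0.745, and without library B -0.536, -0.141 and -0.125. Exons of BAG2, on the other strand, cover 57.7% of the exon bases of RAB23, whose reads are uncertain without a stated strand setting. Exons of other annotated genes on 1 strand also cover 44.8% of RAB24, 42.6% of RAB1B, 37.8% of RAB8A, 36.8% of RAB4B, 28.8% of RAB5C, 24.8% of RAB13, 23.8% of RAB3D, 22.9% of RAB1A and 19.6% of RAB4A, whose reads are uncertain likewise. For the other members the share was 14.8% or less, and among those that passed it was 12.4% for RAB11B, 4.59% for RAB27B, 3.43% for RAB2B and 0.335% for RAB37. The RAB40 genes, whose products join a RAB fold to a ubiquitin ligase box, did not pass (log2 fold changes 0.23 to 0.89).

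**Figure D2:**
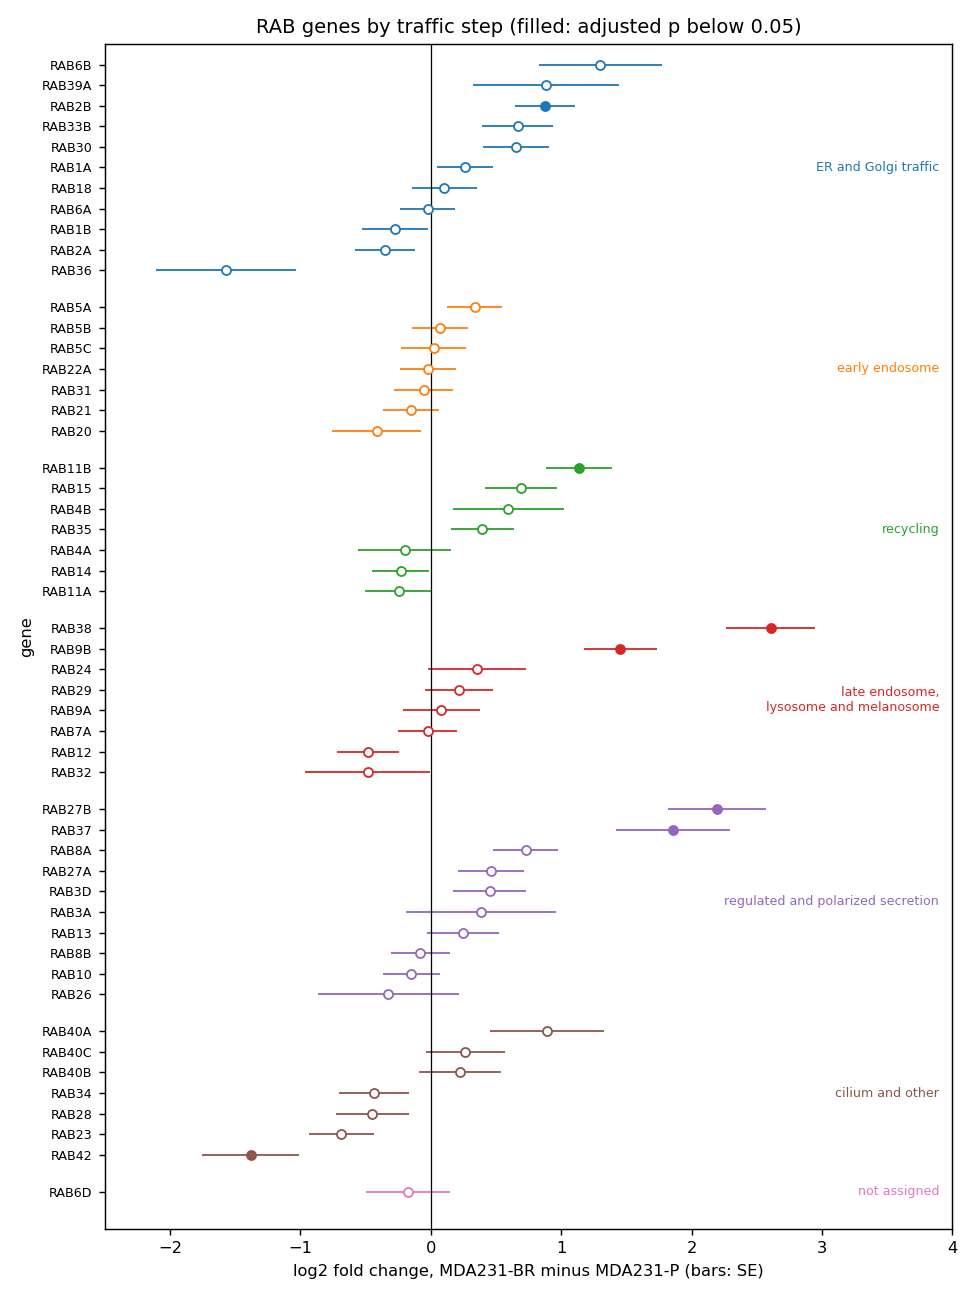
Log2 fold change (MDA231-BR minus MDA231-P, bars are SE) of the 51 tested RAB genes, ordered by traffic step, with filled points for genes at an adjusted p below 0.05. The early endosome points lie between -0.41 and 0.34, and the filled points on the right are spread over 4 steps.

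The 2 MDA231-BR libraries did not place the family alike. Against the parental mean, the median RAB gene lay at 0.32 (log2) in MDA231-BR library A and at -0.02 in MDA231-BR library B, where all genes had medians of 0.01 and 0.03. Library B was below library A in 36 of 51 RAB genes (70.6%), against 50% of all genes. The parental libraries differed too, since parental library B was above parental library A in 36 of 51 RAB genes (70.6%), against 51.4% of all genes. The 7 genes that passed with all libraries kept their direction without MDA231-BR library A and without MDA231-BR library B. Passing with 2 libraries per line largely requires this, so it is no separate support.

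**Figure D3:**
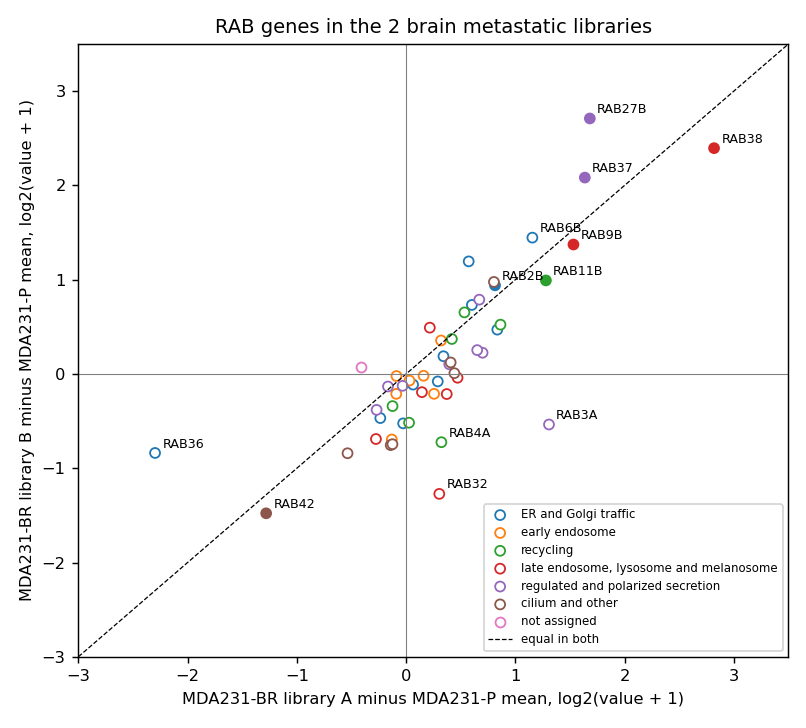
Each point is a tested RAB gene, with its log2 difference from the MDA231-P mean in MDA231-BR library A (horizontal) and library B (vertical), coloured by traffic step and filled where it passed. The filled points lie on the same side of 0 in both libraries, while RAB32, RAB3A and RAB4A lie on opposite sides.

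Of 11 pairs of paralogs, the member less abundant in MDA231-P held a larger share in both MDA231-BR libraries than in either MDA231-P library in 7. It held a smaller share in 3, and the shares overlapped for RAB4A and RAB4B. The 7 include the pairs of RAB27B, RAB11B, RAB9B, RAB2B and RAB38, which had passed as higher, so the count partly restates those calls. No such count was made for pairs of other genes. For single genes, the MDA231-BR libraries lay above both MDA231-P libraries in 31.7% of all genes and below them in 29.7%. That is another measure than a share within a pair, so the count of 7 has no background. RAB27B held 19.1% and 24.7% of the RAB27 level per kilobase in MDA231-P and 35.5% and 60.9% in MDA231-BR. RAB11B held 32% and 23.1% of the summed RAB11A and RAB11B level in MDA231-P and 47.3% and 51.7% in MDA231-BR. RAB9B held 9.86% and 8.66% of the RAB9 level in MDA231-P and 18.6% and 23.5% in MDA231-BR. RAB2B held 20.5% and 16.7% of the RAB2 level in MDA231-P and 32% and 37.7% in MDA231-BR. RAB38 had 5.55% and 6.03% of the summed RAB32 and RAB38 level in MDA231-P and 26.1% and 44% in MDA231-BR, where the low RAB32 value of library B contributes. RAB8B, the more abundant of its pair, held 67.8% and 78.2% in MDA231-P and 62.8% and 59.3% in MDA231-BR, so the share of RAB8A was larger there. RAB6B held 0.211% and 0.273% of the RAB6A and RAB6B level in MDA231-P and 0.529% and 0.734% in MDA231-BR. The 3 pairs with a smaller share were RAB1B with RAB1A (30.6% and 26.6% in MDA231-P, 23.6% and 19.6% in MDA231-BR), RAB5B with RAB5A (32.2% and 28.9%, then 28.2% and 25.3%) and RAB5C with RAB5A (34.2% and 32.4%, then 32.3% and 25.2%). The RAB5 pairs share RAB5A. These shares use ratios within a library and do not depend on its scaling. An exact permutation test (two-sided) on the log2 ratio of each of 11 pairs, chosen with the values known, gave p = 0.333 (adjusted p = 0.366) for 10 pairs and p = 0.667 for RAB4A and RAB4B. The value 0.333 is the smallest that 2 against 2 libraries allow, so no pair could pass.

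**Figure D4:**
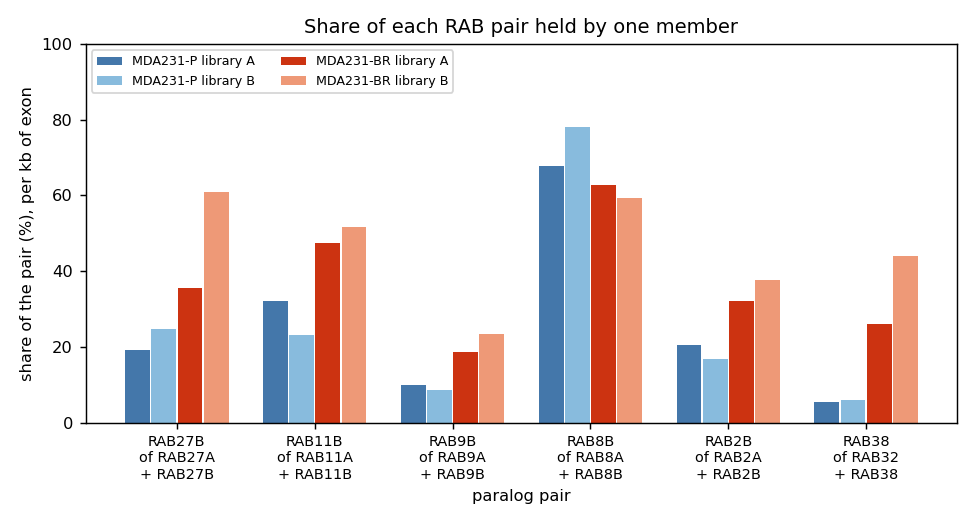
Share (%) of each paralog pair, per kilobase of exon, held by the member named first on the axis, with 1 bar per library. The MDA231-BR bars are above both MDA231-P bars for RAB27B, RAB11B, RAB9B, RAB2B and RAB38 and below them for RAB8B.

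Promoters of 4 starts are shown, those of RAB27B, RAB11B and RAB9B, which were higher in MDA231-BR by more than 1 on the log2 scale and lie on different chromosomes. Windows of 250 bases before each start came from RefSeq (GRCh38.p14), which matched 44 of the 54 RAB genes; RAB38 and RAB37 had no entry, and 3 further windows of passing genes, 2 of RAB2B and 1 of RAB42, are described but not printed. Capitals mark every match, on either strand, to the letters CACGTG (E-box), TGANTCA (AP-1), GGGCGG (GC box) and CCAAT.
RAB27B, upstream start (chr18:54717607-54717856, plus strand): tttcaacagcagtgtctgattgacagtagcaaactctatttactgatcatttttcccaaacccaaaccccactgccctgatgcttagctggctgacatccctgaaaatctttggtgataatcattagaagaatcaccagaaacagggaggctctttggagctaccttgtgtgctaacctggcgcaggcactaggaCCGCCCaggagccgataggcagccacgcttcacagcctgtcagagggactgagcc
RAB27B, downstream start (chr18:54828227-54828476, plus strand): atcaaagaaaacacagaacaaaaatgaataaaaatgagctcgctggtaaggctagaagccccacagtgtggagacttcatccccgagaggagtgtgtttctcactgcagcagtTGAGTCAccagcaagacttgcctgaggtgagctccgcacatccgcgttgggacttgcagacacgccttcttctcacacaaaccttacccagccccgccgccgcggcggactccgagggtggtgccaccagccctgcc
RAB9B (chrX:103832258-103832507, minus strand): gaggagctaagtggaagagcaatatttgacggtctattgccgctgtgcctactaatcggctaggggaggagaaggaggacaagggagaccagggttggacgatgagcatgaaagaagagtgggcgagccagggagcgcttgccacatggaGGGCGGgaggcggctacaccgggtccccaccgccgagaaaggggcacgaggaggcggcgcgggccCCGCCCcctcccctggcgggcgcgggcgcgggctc
RAB11B (chr19:8390110-8390359, plus strand): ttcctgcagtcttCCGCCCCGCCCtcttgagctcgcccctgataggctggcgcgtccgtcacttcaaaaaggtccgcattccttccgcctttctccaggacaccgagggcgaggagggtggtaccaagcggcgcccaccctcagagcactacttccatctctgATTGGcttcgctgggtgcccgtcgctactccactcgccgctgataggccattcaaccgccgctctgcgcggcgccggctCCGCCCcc

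The windows differed in composition. The upstream RAB27B window had 50.4% GC and 4 CpG and the downstream one 56% and 12, whereas RAB9B had 66.8% and 21 and RAB11B 65.6% and 24, against a median of 58% and 11 over 35114 windows. The AP-1 letters occurred only in the downstream RAB27B window among these 4 and in 6.57% of all windows. The GC box occurred in 42.6%, CCAAT in 32% and the E-box letters in 6.35% of all windows. In RAB11B, 2 of the 3 GC boxes overlap each other. The unprinted RAB2B windows had 63.6% and 61.6% GC, 7 and 1 GC boxes and 1 CCAAT each, and the RAB42 window 62% GC and 1 GC box.

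By gene order in GENCODE v29, some members lay among other genes that changed. Of the 10 tested genes nearest to RAB27B on chromosome 18 (5 on each side), 7 were higher in MDA231-BR and 0 were lower, with a median log2 fold change of 0.99. At least 7 higher neighbours occurred around 0.292% of all genes. RAB9B and RAB40A lie close together on chromosome X, where 4 and 8 of their 10 neighbours were higher and 0 were lower. These counts are not separate, since both include TCEAL4, TCEAL1 and MORF4L2, and RAB9B is itself among the 8. At least 4 higher neighbours occurred around 4.29% of all genes and at least 8 around 0.104%. The median log2 fold change was 0.28 over chromosome 18 and 0.38 over chromosome X. RAB2B and RAB37 each had 2 higher neighbours of 10, RAB38 and RAB11B each had 1, and RAB42 had 0. RAB37 and RAB11B also had 1 lower neighbour each. The part of genome position in the RAB values was not tested.

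Regulators and effectors of RABs are given from 7 lists, of which 183 genes had a row and 181 were tested. In MDA231-BR 17 were higher (9.39%) and 7 lower (3.87%), against 8.61% and 5.8% of all genes, and the median log2 fold change was 0.05. In the 4 fits that left out a library, the number of calls over all genes changed too. It was far lower without a parental library and higher without an MDA231-BR library. A call that ended without a parental library thus does not set a gene apart. MYO5C, RIMS2 and CHML passed in each of these 4 fits. Genes named in the next paragraphs without a remark did not pass without parental library A or without parental library B (adjusted p 0.0571 to 0.381).

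Effectors of secretion had 4 higher, 2 lower and 17 not passing of 23 (26.1% called, against 14.4% of all genes). MYO5C, a class V myosin found on secretory granules, had 253 and 242.5 in MDA231-P and 2029 and 2342 in MDA231-BR (log2 fold change 3.13 ± 0.24 SE, n = 2 each, adjusted p = 0.000434, limma-trend). MLPH, melanophilin, which links RAB27A to a class V myosin, had 1047 and 968 in MDA231-P and 2560.2 and 3058 in MDA231-BR (1.47 ± 0.23 SE). The synaptotagmin-like genes SYTL3 (1.87) and SYTL4 (1.11), whose products bind RAB27 proteins, also rose. SYTL4 belongs to the list but was named after its value was seen. SYTL2, another member of that group, measured a log2 fold change of 0.99 and did not pass (adjusted p = 0.0577). SYTL1 measured -0.92, from 26.4 and 35.9 in MDA231-P to 10.6 and 23.3 in MDA231-BR, and did not pass (adjusted p = 0.28, limma-trend). In the same list, EXPH5 (-0.11), UNC13D (0.16), RPH3AL (0.04) and MYO5A (0.44), named after their values were seen, did not pass. The lower genes were RIMS2, a RAB3 effector of the release site, with 1444 and 1402 in MDA231-P and 351 and 367 in MDA231-BR (-1.99 ± 0.24 SE, n = 2 each, adjusted p = 0.00208, limma-trend), and the exocyst gene EXOC4 (-0.93). The other 8 exocyst genes did not pass.

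Genes that prepare and extract RABs had a median log2 fold change of 0.51 over 9 tested. CHML, a Rab escort protein that presents new RABs for prenylation, had 2416 and 2239.8 in MDA231-P and 6853 and 7562 in MDA231-BR (log2 fold change 1.63 ± 0.22 SE, n = 2 each, adjusted p = 0.00322, limma-trend). CHM, its paralog, measured 0.51 and did not pass (adjusted p = 0.175). GDI2, which extracts GDP-bound RABs from membranes, had normalized counts of 13349 to 16178 and did not pass (-0.17). RABGGTA and RABGGTB, the subunits of the RAB prenyltransferase, did not pass.

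GTPase-activating proteins had 6 higher, 0 lower and 28 not passing of 34 (17.6% higher, against 8.61% of all genes), although the median was -0.01. TBC1D8B (1.85), TBCK (1.59) and TBC1D8 (1.42) had the largest increases among those with at least 5 CPM. TBC1D8B ended only without parental library A (adjusted p = 0.075). Exchange factors had 4 higher, 2 lower and 47 not passing of 53 (11.3% called, against 14.4% of all genes). DENND3, an exchange factor for RAB12 (1.21), SH3BP5L, one for RAB11 (1.09), and TRAPPC12, a TRAPP complex subunit (0.96), rose. RAB3IL1, an exchange factor for RAB3A and RAB8 proteins (-1.80), and the TRAPP subunit TRAPPC2 (-1.11) fell.

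Effectors of early and recycling endosomes had 1 higher, 2 lower and 21 not passing of 24 (12.5% called, against 14.4%). OCRL, an inositol phosphatase that binds several RABs, rose (1.01), and APPL1, a RAB5 effector (-0.98), and ACAP2, a RAB35 effector (-0.95), fell. Of 22 effectors of late endosomes and lysosomes, RABEPK, a RAB9 effector, fell (-0.94) and 21 did not pass (4.55% called, against 14.4% of all genes). The RABEPK call ended without MDA231-BR library B too (adjusted p = 0.0634). Effectors of endoplasmic reticulum and Golgi traffic had 0 passing of 16 (0% called, against 14.4% of all genes) and log2 fold changes from -0.25 to 0.72. The highest per kilobase, USO1, a tether that binds RAB1, measured normalized counts of 5540.6 and 5762 in MDA231-P and 5549.6 and 6851 in MDA231-BR, with overlap.

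**Figure D5:**
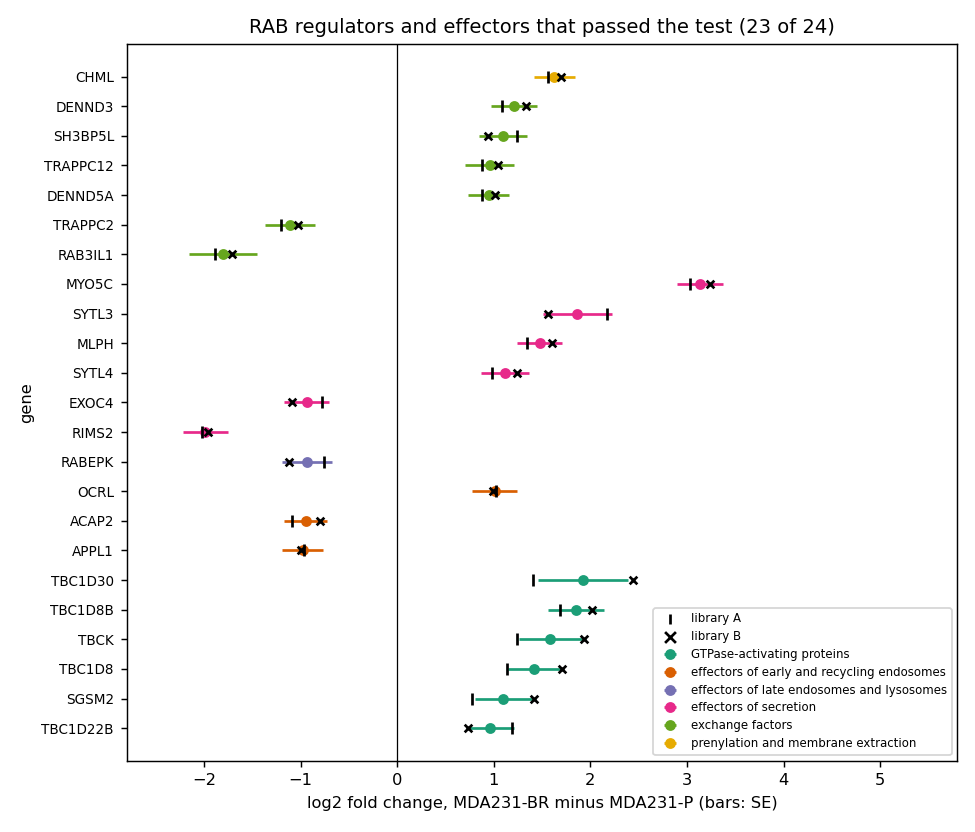
Log2 fold change (MDA231-BR minus MDA231-P, bars are SE) of 23 of the 24 RAB regulators and effectors that passed, coloured by list, with marks for the difference of each MDA231-BR library from the parental mean. Both marks of each gene lie on the same side of 0, with MYO5C farthest to the right and RIMS2 farthest to the left.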

How the data were processed

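The members and gene lists were chosen with earlier results of these data known. Per the submitters' processing notes, HISAT2, featureCounts, DESeq2 and the build GRCh37 were used, without versions; the annotation, strand setting and filters are not stated there. Values deposited by the authors are a normalized read signal: each column consists of whole multiples of 1 step, which gave whole reads for 100% of values (tolerance 0.01 reads). Of 15346 rows, 67 without a gene name (0.031% to 0.0369% of reads) were left out. Genes were kept by filterByExpr on recovered reads (minimum count 10, minimum total 15), leaving 14424. The test was limma-trend on log2(value + 1), which understates changes of low genes, with Benjamini-Hochberg adjustment over all tested genes and a threshold of 0.05. On these reads, edgeR's quasi-likelihood fit, DESeq2 and limma-voom, and other scalings, pseudocounts and filters, and leaving out each library were alternatives; edgeR and DESeq2 each called the same 7 RAB genes. Replicates were not copies of one library (chi-square per degree of freedom 60.7 and 122). Named were all passing RAB genes, those with an absolute log2 fold change of at least 1, the highest of each step, paralogs, and in each other list up to 3 passing genes per direction with at least 5 CPM (the top gene per kilobase where none passed). Other RAB genes were named after their values were seen. Exon lengths, gene order and coding ends came from GENCODE v29 by symbol. The scripts were tested on simulated data, where 16% of 2-fold and 97% of 4-fold changes were recovered. A gene that did not pass may thus still differ 2-fold. R 4.3.3, limma 3.58.1, edgeR 4.0.16 and DESeq2 1.42.0 were used. One regulator and some coding ends are not reported here.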

Additional observations from a re-analysis of the deposited data

How the results depend on the processing

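No paired analysis was possible because the column headers give the line and no replicate number. Under the 9 alternatives that kept all libraries, 6 RAB genes were called higher in each, and 1 lower in each except with no filter on low values (0). Leaving out a library gave 1 to 9 RAB genes higher and 0 to 6 lower, 2 to 33 regulators and effectors higher and 1 to 16 lower, and 421 to 5257 genes in all (421 and 429 without parental library A or B, 5257 and 3147 without MDA231-BR library A or B). DESeq2 called 12 regulators and effectors lower, against 7. The RAB median log2 fold change ranged from -0.02 to 0.32 over the fits without a library. Without at least 1 library the direction reversed for 16 of the 51 RAB genes tested, none of them called (adjusted p from 0.52), and under an alternative with all libraries for 1 (RAB5C). Among the highest genes of each step these were RAB7A (-0.02 with all libraries, -0.193 to 0.145 without a library, with 0.03 without parental library A) and RAB6D (-0.17, and 0.069 without MDA231-BR library A, lowest -0.42). Paralogs reversed too, such as RAB32, RAB11A, RAB9A, RAB8B, RAB6A and RAB4A. The cause was not tested beyond the fewer libraries. A fit that leaves 1 library in a line assumes that it varies like the other line.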
